A study of Mus musculus with 20 samples.

Results

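Adenylate kinases are the enzymes that move a phosphate between adenine nucleotides, and 7 of their genes, Ak1, Ak3, Ak4, Ak5, Ak7, Ak8 and Ak9, were followed here out of the 45705 genes in the table. They were picked by gene name, with earlier results of these same libraries known, so that the isoforms tied to motile cilia (Ak7 and Ak8) stand beside the general ones. The values that guided the choice are those of NSC against the progenitors, and that contrast is therefore given as a description, with no test. Ak6, another adenylate kinase gene, is given beside them.

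The series compared 5 sorted populations from the subventricular zone (SVZ), the germinal layer along the lateral ventricles, of Swiss Webster mice at postnatal day 5. No population carried an engineered allele or received an agent. NSC, the neural stem cells, were gated as CD133+ LeX+ (LeX is CD15) without NG2 or CD140a. The 4 neural progenitor (NP) populations were all NG2+ and CD133-, and differed in the other antigens: BNAP/GRP1 were CD140a- CD15+, GRP2/MP3 were CD140a- CD15-, GRP3 were CD140a+ CD15-, and PFMP were CD140a+ CD15+. Each population had 4 libraries, 1 from each of 4 batches, and the number after a population's name is its batch (NSC 3 is the NSC library of batch 3). The labels number the batches without saying which step a batch shared. Pups of a litter, of both sexes, were pooled, and polyA RNA was amplified before sequencing. The values are the authors' RPKM, read numbers corrected for gene length and sequencing depth. Levels of different genes are set side by side on this scale. How far the amplification, and the gene lengths used, which are not given, affect such comparisons was not tested.

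Adenylate kinases catalyse the reversible conversion of ATP and AMP into a pair of ADP molecules, which lets a cell use both high-energy bonds of ATP and turns a small fall in ATP into a larger rise in AMP. The isoforms differ mainly in place: Ak1 and Ak5 act in the cytosol, Ak3 and Ak4 in the mitochondrial matrix, and Ak6 in the nucleus. Ak7 and Ak8 are known from motile cilia, where nucleotides must be recycled close to the dynein motors, and loss of either in mice has been linked to hydrocephalus. Ak9 is a long protein with several kinase domains. In the SVZ the cells with motile cilia are the ependymal cells, which line the ventricle and carry CD133 on their cilia.

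The promoter windows of Ak7, Ak8 and Ak9 are shown because each of these members was lower than in NSC of the matching batch in 16 of 16 progenitor libraries. Each window is RefSeq sequence on GRCm38.p6, from 250 bases before the RefSeq start to 50 after it, on the plus strand: chr12:105705732-105706031 for Ak7, chr2:28699911-28700210 for Ak8 and chr10:41303684-41303983 for Ak9. The capitals mark the letters GTTGCC, a half-site of the RFX factors of ciliated cells, and TGTTTA, a core of forkhead factors such as Foxj1, on either strand (as GGCAAC and TAAACA when reversed).
Ak7: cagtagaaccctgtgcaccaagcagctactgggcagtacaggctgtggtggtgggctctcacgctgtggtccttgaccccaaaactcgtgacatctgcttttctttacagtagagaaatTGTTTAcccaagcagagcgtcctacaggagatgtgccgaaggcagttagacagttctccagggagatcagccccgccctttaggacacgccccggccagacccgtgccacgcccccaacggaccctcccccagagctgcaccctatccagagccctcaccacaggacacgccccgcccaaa
Ak8: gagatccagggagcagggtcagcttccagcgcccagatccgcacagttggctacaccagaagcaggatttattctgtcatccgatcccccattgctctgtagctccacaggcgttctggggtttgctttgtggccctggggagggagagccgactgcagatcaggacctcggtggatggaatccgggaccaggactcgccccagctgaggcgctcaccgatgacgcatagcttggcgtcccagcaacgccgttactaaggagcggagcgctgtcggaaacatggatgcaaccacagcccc
Ak9: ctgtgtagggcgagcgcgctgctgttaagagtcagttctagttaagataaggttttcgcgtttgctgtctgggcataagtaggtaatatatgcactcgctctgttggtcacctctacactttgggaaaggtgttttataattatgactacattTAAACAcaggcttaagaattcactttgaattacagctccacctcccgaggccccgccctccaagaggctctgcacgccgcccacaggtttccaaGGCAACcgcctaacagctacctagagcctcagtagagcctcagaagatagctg

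The RefSeq start of Ak9 (41303934) lies 46 bases before the GENCODE start printed with its values, and those of Ak7 and Ak8 lie within 6 bases of theirs. The Ak7 window held 1 forkhead core, beginning 131 bases before the RefSeq start. The Ak9 window held 1 forkhead core, beginning 97 bases before the RefSeq start, and 1 RFX half-site, beginning 3 bases before it. Neither run of letters occurred in the Ak8 window. Of 32851 promoter windows of this length, 12.5% held the RFX half-site and 13.4% the forkhead core, so a single match is common. RefSeq gave 13 windows for 7 of the 8 genes looked up. Among the other windows, 2 of the 4 of Ak1 held RFX half-sites, 2 in one and 3 in the other, and those of Ak3, Ak4 and Ak6 held neither motif.

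Across the series, the total RPKM of a library ranged from 955067 to 2407643 and the number of genes above 0 from 20116 to 39689. Read totals are not in the table, but low values stood in whole-number ratios, which gave relative depths from 0.0395 (BNAP/GRP1 4) to 1.41 (BNAP/GRP1 3). The batch 3 libraries of all 5 populations stood apart. Their 5 erythroid markers (globins and Alas2) summed to at least 228440 RPKM, against at most 26514 in the other 15 libraries, and their 6 lung and airway epithelium markers to at least 1605 against at most 69.3. In NSC, all 12 motile cilium and ependymal markers (Foxj1, Rsph1, Tekt1 and others) were above 0 in each library and summed to between 1744 and 18261 RPKM, against 5.15 to 570 in the 16 progenitor libraries, whereas the 10 NSC and astroglial markers gave overlapping sums, 1228 to 5998 in NSC and 493 to 15064 in progenitors. All 4 progenitor libraries lay below all 4 NSC libraries for 11 or 12 of the 12 cilium and ependymal markers in each progenitor, and for at most 1 of the 10 NSC and astroglial markers. Of the 27614 genes tested, 1.2, 2.93, 2.34 and 3.51% did so in BNAP/GRP1, GRP2/MP3, GRP3 and PFMP. In bulk samples such as these, fewer cells of a type and less RNA per cell cannot be told apart.

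Ak7 and Ak8 were both abundant in NSC and lower in every progenitor, Ak9 followed at a lower level, and Ak1, Ak3, Ak4 and Ak5 overlapped between NSC and each progenitor. All 7 members passed the filter (4 or more of the 20 libraries at 1 RPKM or above), as did 27614 genes in all. Ak7, Ak8 and Ak9 reached 1 RPKM in all 4 NSC libraries and in only 3, 6 and 3 of the 16 progenitor libraries. They would have passed through NSC alone.

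**Figure D1:**
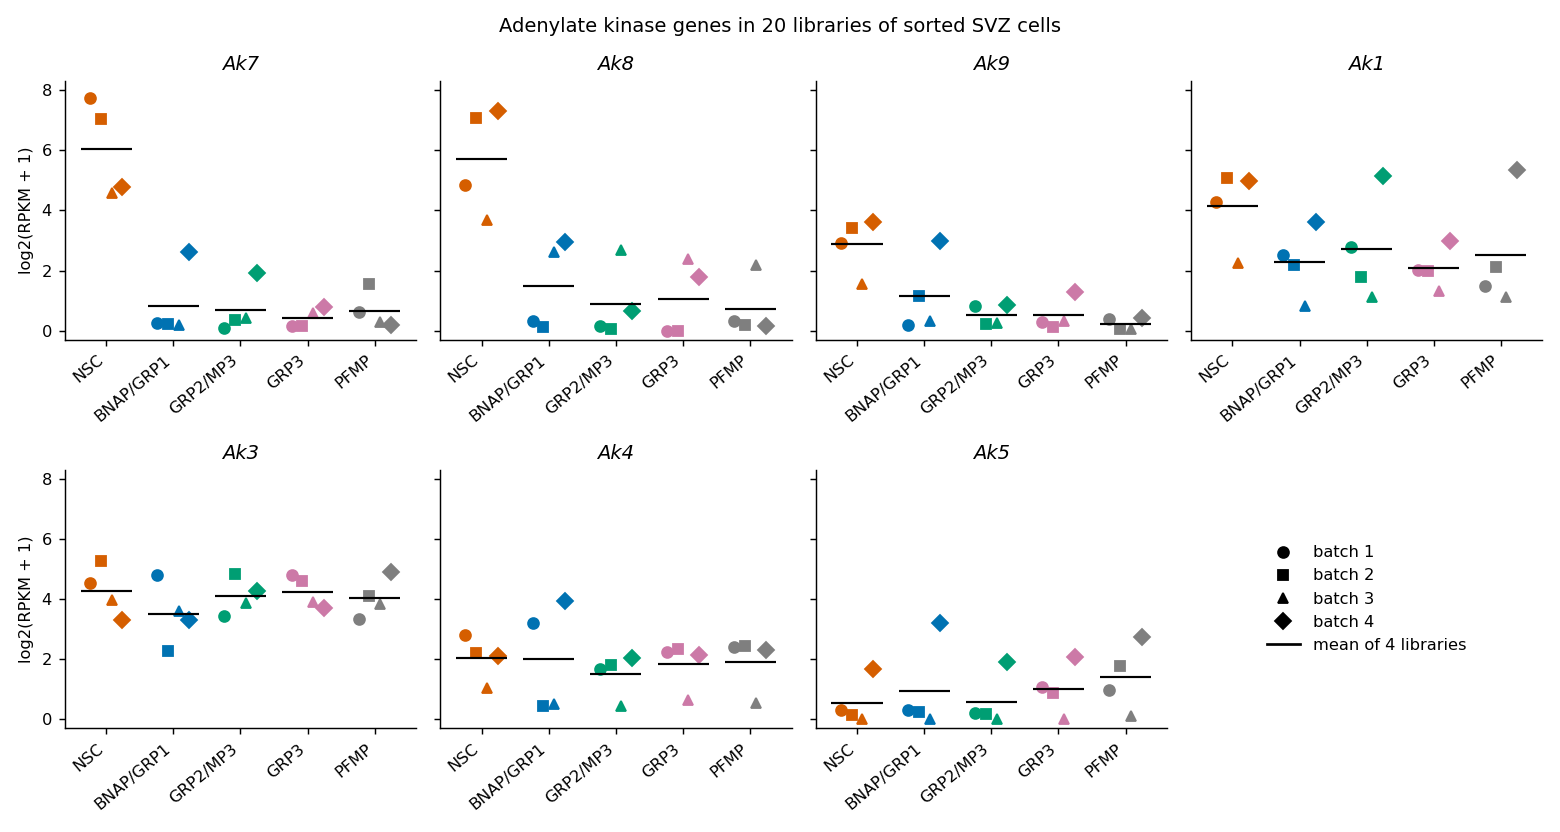
Level of each of the 7 adenylate kinase genes, as log2(RPKM + 1), by population on the horizontal axis, with 1 point per library, the shape giving the batch and the line the mean of 4 libraries. The NSC points of Ak7 and Ak8 lie above all progenitor points, while Ak1, Ak3, Ak4 and Ak5 overlap.

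Ak7 (ENSMUSG00000041323, on the plus strand of chromosome 12 from 105705976 to 105782447 of GRCm38, in 19 exon blocks) was the most abundant of the ciliary isoforms in NSC by its mean. Its RPKM was 215, 130, 23 and 26.7 in NSC of batches 1 to 4. In BNAP/GRP1 it was 0.209, 0.154, 0.149 and 5.21, and in GRP2/MP3 it was 0.0556, 0.282, 0.35 and 2.79. The batch 4 library was the highest in both of these progenitors. In GRP3 it was 0.123, 0.121, 0.519 and 0.733, and in PFMP it was 0.528, 1.98, 0.222 and 0.134. The lowest NSC library (23) was thus several times the highest progenitor library (5.21), and no progenitor overlapped NSC. The mean was 98.5 RPKM ± 91.9 (SD, n = 4) in NSC and between 0.374 ± 0.304 in GRP3 and 1.43 ± 2.52 in BNAP/GRP1. On the log2(RPKM + 1) scale, on which all differences here are given, and which understates the change of low genes, the progenitor minus NSC difference was -5.21, -5.34, -5.61 and -5.38 in BNAP/GRP1, GRP2/MP3, GRP3 and PFMP, each with a standard error (SE) of 0.75.

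Ak8 (ENSMUSG00000026807, chromosome 2, 28700164 to 28813165, plus strand, 15 exon blocks) had nearly the same NSC mean, 82.3 RPKM ± 72.9 (SD, n = 4), but was spread differently over the batches. Its RPKM was 28.1, 134, 11.8 and 156 in NSC of batches 1 to 4. It was 0.244, 0.0862, 5.09 and 6.68 in BNAP/GRP1 and 0.112, 0.0418, 5.39 and 0.574 in GRP2/MP3. In all 4 progenitors the batch 3 value stood above those of batches 1 and 2. It was listed at 0 in GRP3 1 and GRP3 2, and was 4.29 and 2.48 in batches 3 and 4. In PFMP it was 0.249, 0.142, 3.5 and 0.119. No progenitor overlapped NSC, the nearest values being those of NSC 3 (11.8) and BNAP/GRP1 4 (6.68). The difference from NSC, in the same order of progenitors, was -4.23, -4.84, -4.68 and -5.02 (SE 0.92 each).

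The batch 3 progenitors separated the ciliary isoforms. There Ak8 ran from 3.5 to 5.39 RPKM, against 0 to 0.249 in the 8 progenitor libraries of batches 1 and 2, while Ak7 ran from 0.149 to 0.519 in batch 3 and from 0.0556 to 1.98 in batches 1 and 2. Low values of Ak7 and Ak8 stood in whole steps, and with 1 step taken as 1 read the batch 3 progenitor values of Ak8 rested on 400 to 733 reads, so they were not single reads. The cilium and ependymal markers summed to 5.15 to 8.53 RPKM in these 4 libraries, no more than in the progenitors of batches 1 and 2 (6.28 to 32.1). The lung and airway epithelium markers summed to 1730 to 1823 against at most 0.221 there, and the erythroid markers to 236858 to 252653 against at most 26514. Their part in the Ak8 values was not tested. With batch 3 left out of every population, the Ak8 difference from NSC was -5.28, -6.12, -5.81 and -6.18 in BNAP/GRP1, GRP2/MP3, GRP3 and PFMP. With batch 4 left out instead it was -4.19, -4.24, -4.40 and -4.31.

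**Figure D2:**
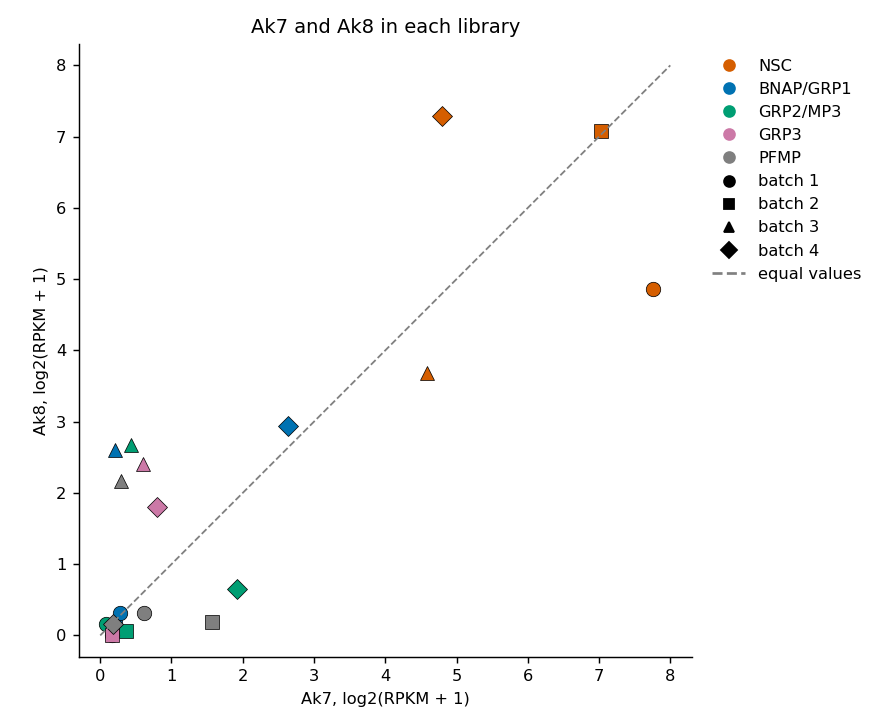
Ak8 against Ak7 in each of the 20 libraries, both as log2(RPKM + 1), with colour for the population, shape for the batch and a dashed line at equal values. The NSC libraries lie on both sides of the line, and the batch 3 progenitors (triangles) sit at Ak7 near 0 with Ak8 between 3.5 and 5.39 RPKM.

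Within NSC, the ratio of Ak7 to Ak8 RPKM was 7.65, 0.971, 1.95 and 0.171 in batches 1 to 4. Either gene could therefore be the more abundant one, depending on the batch. Against Foxj1, a master regulator of motile cilia, Ak7 had a ratio of 1.52, 0.368, 0.672 and 0.807. The ratio of Ak8 to Foxj1 was 0.199, 0.379, 0.345 and 4.71, with NSC 4 far above the other 3. Ak7 and Ak8 thus did not keep a fixed ratio to each other across the NSC libraries.

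Ak9 (ENSMUSG00000091415, chromosome 10, 41303980 to 41434534, plus strand, 40 exon blocks) was the least abundant of these 3 in NSC, at 7.37 RPKM ± 4.14 (SD, n = 4). Its RPKM was 6.5, 9.71, 1.94 and 11.3 in NSC of batches 1 to 4. It was 0.143, 1.25, 0.243 and 6.89 in BNAP/GRP1, where the batch 4 library lay inside the NSC range. In GRP2/MP3 (0.158 to 0.808), GRP3 (0.0892 to 1.45) and PFMP (0.0478 to 0.35) all libraries lay below NSC. The difference from NSC was -1.71, -2.34, -2.37 and -2.64 in BNAP/GRP1, GRP2/MP3, GRP3 and PFMP (SE 0.61 each), and in BNAP/GRP1 it was -2.32 without BNAP/GRP1 4 and -1.39 without BNAP/GRP1 1.

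BNAP/GRP1 4 needs care for several members at once. By the relative depths inferred from low values it was the shallowest library, though 38191 genes stood above 0 in it. The median over all 45705 genes was 8.3 RPKM there, against at most 2.02 in the other 19 libraries. Its values of Ak7 (5.21), Ak8 (6.68), Ak9 (6.89) and Ak5 (8.15) all lay below that median. The Ak7 value corresponded to 53 reads and the Ak8 value to 27, with 1 step taken as 1 read.

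Ak1 (ENSMUSG00000026817, chromosome 2, 32621758 to 32635058, plus strand), the cytosolic isoform of muscle and brain, was lower in most progenitor libraries but overlapped NSC in every population. Its RPKM was 18.4, 33.1, 3.72 and 30.5 in NSC of batches 1 to 4. It was 4.76, 3.58, 0.748 and 11.1 in BNAP/GRP1 and 3.07, 3.01, 1.48 and 6.82 in GRP3. Both populations were below NSC within each of the 4 batches. It was 5.85, 2.43, 1.16 and 34.6 in GRP2/MP3 and 1.79, 3.34, 1.17 and 39.8 in PFMP. In batch 4 these last 2 populations exceeded NSC, and in batches 1 to 3 they were below it. The difference from NSC was -1.86, -1.44, -2.07 and -1.63 in BNAP/GRP1, GRP2/MP3, GRP3 and PFMP, with an SE of 0.96. With single libraries left out it ran in GRP2/MP3 from -2.26 (without GRP2/MP3 4) to -0.91 (without GRP2/MP3 3), and in PFMP from -2.57 (without PFMP 4) to -1.16 (without PFMP 3). In BNAP/GRP1 it ran from -2.50 (without NSC 3) to -1.37 (without BNAP/GRP1 3), and in GRP3 from -2.71 (without NSC 3) to -1.75 (without NSC 2).

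The mitochondrial isoforms did not separate NSC from progenitors. Ak3 (ENSMUSG00000024782), the GTP-using enzyme of the matrix, was found in all 20 libraries, between 3.88 and 37.9 RPKM, with means of 20.9 ± 12.6 in NSC and 12.8 ± 10.1 (BNAP/GRP1), 17.3 ± 7.49 (GRP2/MP3), 19 ± 7.32 (GRP3) and 16.8 ± 8.33 (PFMP) in the progenitors (SD, n = 4). Its differences from NSC ran from -0.77 to -0.03 (SE 0.59). Ak3 shares 430 exonic bases with Cdc37l1 on the opposite strand, and the sources used here do not state whether strand was used in counting. Ak4 (ENSMUSG00000028527), the matrix isoform that responds to low oxygen, ranged from 0.356 to 14.4 RPKM, with means of 3.5 ± 2.03 in NSC and 2.05 ± 1.17 to 5.84 ± 6.79 in the progenitors. Its differences from NSC ran from -0.54 to -0.02 (SE 0.78). The batch 3 library was the lowest in NSC, GRP2/MP3, GRP3 and PFMP.

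Ak5 (ENSMUSG00000039058), a cytosolic isoform of neurons, was the only member whose mean was higher in every progenitor than in NSC. Its NSC values were 0.256, 0.11, 0 and 2.23 RPKM in batches 1 to 4. It was 0.983, 2.47, 0.0854 and 5.64 in PFMP and 1.13, 0.834, 0 and 3.25 in GRP3. In these CD140a+ populations it was at or above the NSC library of its batch throughout. It was 0.236, 0.178, 0 and 8.15 in BNAP/GRP1 and 0.158, 0.129, 0 and 2.78 in GRP2/MP3. Batch 4 was the highest in all 5 populations, and 4 of the 5 batch 3 libraries were listed at 0. The differences from NSC were 0.39, 0.03, 0.47 and 0.86 in BNAP/GRP1, GRP2/MP3, GRP3 and PFMP, with an SE of 0.75, and every progenitor overlapped NSC. Over the alternative settings run, the BNAP/GRP1 difference ran from -0.36 to 0.77 and the GRP2/MP3 difference from -0.41 to 0.42.

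Counted together, 2 of the 7 members (Ak7 and Ak8) had all 4 BNAP/GRP1 libraries below all 4 NSC libraries, as did 1.2% of the 27614 genes tested. In GRP2/MP3, GRP3 and PFMP there were 3 such members (Ak7, Ak8 and Ak9), beside 2.93%, 2.34% and 3.51% of the genes tested. This contrast guided the choice of the members, so nothing is read from the counts. Set against the NSC library of the same batch, Ak7, Ak8 and Ak9 were lower in 16 of 16 progenitor libraries, Ak1 in 14, Ak3 and Ak4 in 10 each, and Ak5 in 2, with 11 higher and 3 pairs in which both were listed at 0. The same-batch count was not made over all genes, and nothing is read from it either. The median difference of all genes tested was 0.38, -0.08, 0.05 and -0.20 in BNAP/GRP1, GRP2/MP3, GRP3 and PFMP, and 0.03 to 0.07 under quantile normalization. Beside it, the Ak3 differences were -0.77, -0.16, -0.03 and -0.23 in the same order.

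**Figure D3:**
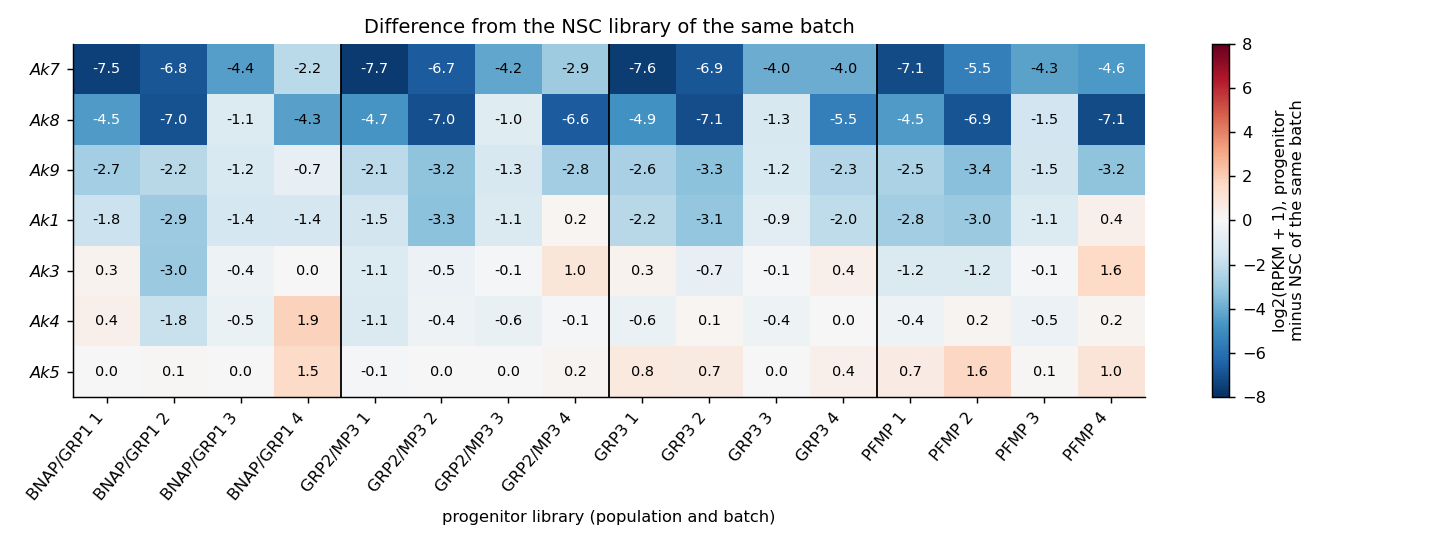
Difference in log2(RPKM + 1) between each progenitor library and the NSC library of the same batch, for the 7 genes in rows and the 16 progenitor libraries in columns, blue where the progenitor is lower and red where it is higher. The rows of Ak7, Ak8 and Ak9 are blue in 16 of 16 columns, with Ak8 pale in batch 3, and that of Ak5 is white or red in all but 2.

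The 4 progenitors were compared with one another by test, since the choice of the members did not turn on those contrasts. Ak1, Ak3, Ak4, Ak5 and Ak8 reached 1 RPKM in 6 to 16 of the 16 progenitor libraries. None of these 5 passed in any of the 6 contrasts by limma's moderated test with Benjamini-Hochberg adjustment, and 0 of their values had an unadjusted p under 0.05, with or without batch as a block. Of all 27614 genes tested, 0% passed in each of the 6, while 84 to 1355 had an unadjusted p under 0.05. The largest difference among the 5 was that of Ak5, 0.83 lower in GRP2/MP3 than in PFMP (-0.83, with a 95% interval of -2.39 to 0.72 and a limma adjusted p of 1). Ak8 was 0.78 higher in BNAP/GRP1 than in PFMP at the most, with an interval of -1.14 to 2.71. Ak7 and Ak9 reached 1 RPKM in only 3 progenitor libraries each and entered the fit through NSC, so their differences between progenitors are given as a description. These ran up to 0.40 for Ak7 (BNAP/GRP1 against GRP3) and 0.92 for Ak9 (BNAP/GRP1 against PFMP). The intervals are from the fit without a batch term, although libraries of the same batch were correlated (median r 0.433, against -0.254 between batches). Those with batch as a block are not given here. With intervals this wide, sizable differences between progenitors could have been missed, and the order of the progenitors by mean (for Ak7 BNAP/GRP1, GRP2/MP3, PFMP, GRP3) has no neighbours that differ beyond their spread.

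As a share of the summed RPKM of the 7 members, Ak7 and Ak8 together made up 82, 75.7, 61.9 and 76.5% in NSC of batches 1 to 4. The mean was 74% ± 8.54 (SD, n = 4). In the progenitors it was 13.1% ± 13.7 (BNAP/GRP1), 8.57% ± 12.5 (GRP2/MP3), 8.62% ± 10.8 (GRP3) and 7.99% ± 8.35 (PFMP). Which genes are summed sets this share, and with Ak6 added it was 41.3% in NSC and 4.9, 1.93, 1.87 and 1.81% in BNAP/GRP1, GRP2/MP3, GRP3 and PFMP. Over the 7 members, in every progenitor the batch 3 library was the highest, at 29.5, 27.1, 23 and 19.7%, nearly all of it Ak8, and all 16 lay below the lowest NSC library. Without batch 3 the means were 7.67, 2.4, 3.82 and 4.08% in BNAP/GRP1, GRP2/MP3, GRP3 and PFMP, and 78.1% in NSC. Ak3 gave 14.5 to 83.1% of the sum in progenitor libraries and 3.72 to 26.1% in NSC.

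**Figure D4:**
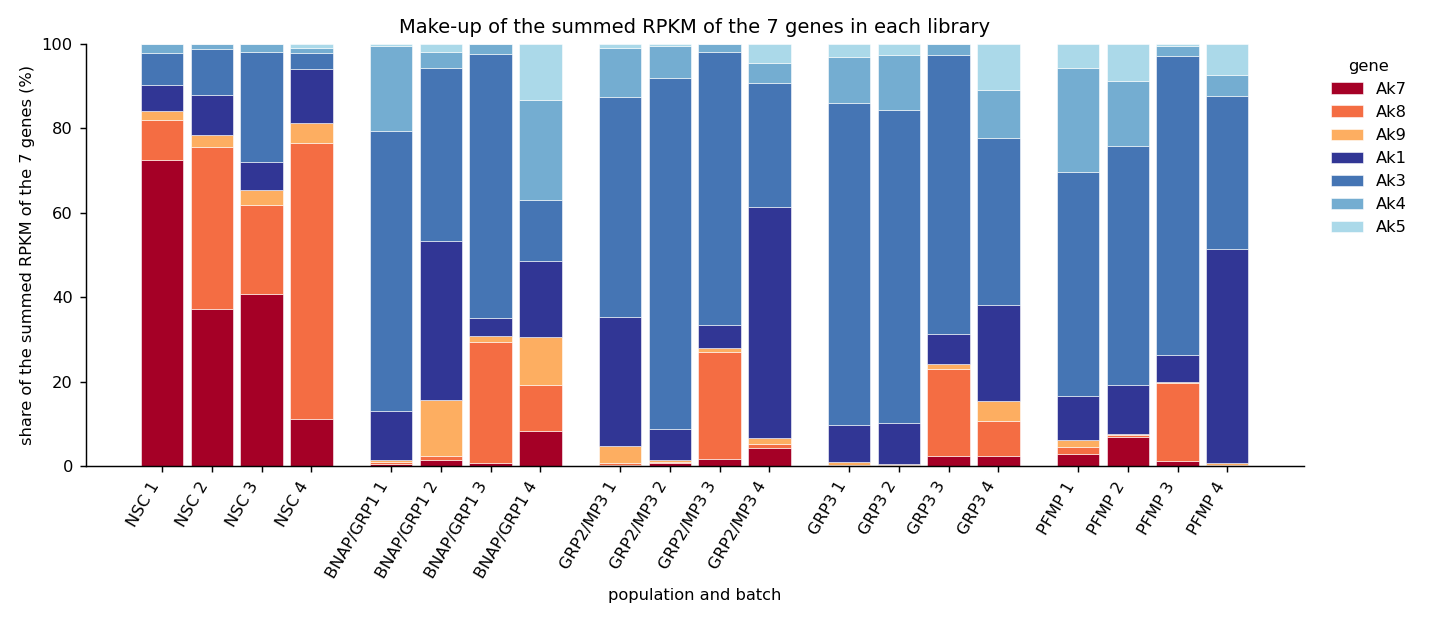
Share of each of the 7 adenylate kinase genes in their summed RPKM (vertical axis, percent), 1 bar per library grouped by population. Ak7 and Ak8 (dark red and orange) take 61.9 to 82% of the bar in NSC and at most 29.5% in any progenitor library, and the mitochondrial Ak3 (mid blue) takes 14.5 to 83.1% in the progenitors. Ak6 is not in the sum, and with it the NSC mean of Ak7 and Ak8 is 41.3%.

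Ak6, an adenylate kinase gene that was not among the members, was tested against NSC. It averaged 171 RPKM ± 72.9 in NSC and 71.7 to 88.8 in the progenitors, with differences of -1.31, -0.89, -0.86 and -1.02 (SE 0.53) in BNAP/GRP1, GRP2/MP3, GRP3 and PFMP. It did not pass in any progenitor (limma, lowest adjusted p 0.638, in BNAP/GRP1). Ak6 shares 1564 exonic bases with Taf9 on the same strand, so its reads are uncertain.

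Other enzymes of the same nucleotide economy were tested against NSC over 5 further lists. These lists, and Ak6, were also chosen with earlier results of this contrast known, so their p-values are not independent evidence. Of the 9 nucleoside diphosphate kinase genes, which use ATP to recharge the other nucleoside diphosphates, 8 were tested, and Nme5 and Nme9 fell in all 4 progenitors and none rose. Both are of the family's branch found in testis and ciliated cells. Beside these counts, 0.76%, 1.12%, 1.04% and 1.14% of all genes tested fell in BNAP/GRP1, GRP2/MP3, GRP3 and PFMP. Over its tested genes the list's median difference was -1.31, -1.34, -1.05 and -0.64 in BNAP/GRP1, GRP2/MP3, GRP3 and PFMP.

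Nme9 was 172, 498, 30 and 203 RPKM in NSC of batches 1 to 4. It was at most 1.93 in GRP2/MP3, 1.86 in PFMP, where 3 libraries were listed at 0, and 5.65 in GRP3, and reached 14.7 in BNAP/GRP1 4. No progenitor overlapped NSC. Its difference from NSC was -5.42 ± 0.87 (SE) in BNAP/GRP1 (limma, adjusted p 0.00209), -6.88 in PFMP (0.000115), -6.57 in GRP2/MP3 (0.000258) and -6.40 in GRP3 (0.000273). With a pseudocount of 0.1 the adjusted p in BNAP/GRP1 was 0.0817.

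Nme5 was higher still in NSC, at 306, 960, 62.4 and 903 RPKM in batches 1 to 4. It was 1.9, 22, 0.116 and 9.34 in BNAP/GRP1, and batch 4 was the highest in the other progenitors, at 13 in GRP3, 24.4 in PFMP and 43.5 in GRP2/MP3. Here too no progenitor overlapped NSC. Its difference was -6.10 ± 1.27 (SE) in BNAP/GRP1 (limma, adjusted p 0.0206), -6.94 in GRP3 (0.00486), -6.76 in GRP2/MP3 (0.00643) and -6.38 in PFMP (0.00931). The call in BNAP/GRP1 was lost without BNAP/GRP1 1 (adjusted p 0.0856), BNAP/GRP1 3 (0.103), NSC 1 (0.0622), NSC 2 (0.123) or NSC 4 (0.0882), and that in PFMP without NSC 2 (0.0583). With a pseudocount of 0.1 it was lost in BNAP/GRP1 (0.172), GRP3 (0.0521) and PFMP (0.0719), and with only the compared populations in the fit in GRP2/MP3 (0.0552) and PFMP (0.0709).

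Nme7, a subunit of the gamma-tubulin ring complex that is also found in axonemes, was 143, 142, 25.8 and 56.4 RPKM in NSC and 5.26 to 31.9 in the progenitors. It is named with its values seen. It did not pass (adjusted p 0.141 to 0.756), but with batch as a block it did in GRP2/MP3 (adjusted p 0.00512), GRP3 (0.0342) and PFMP (0.0136). The housekeeping genes of the family, Nme1 and Nme2, had differences of 0.05 to 1.21 and did not pass. Nme8, also of cilia, was under the filter.

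**Figure D5:**
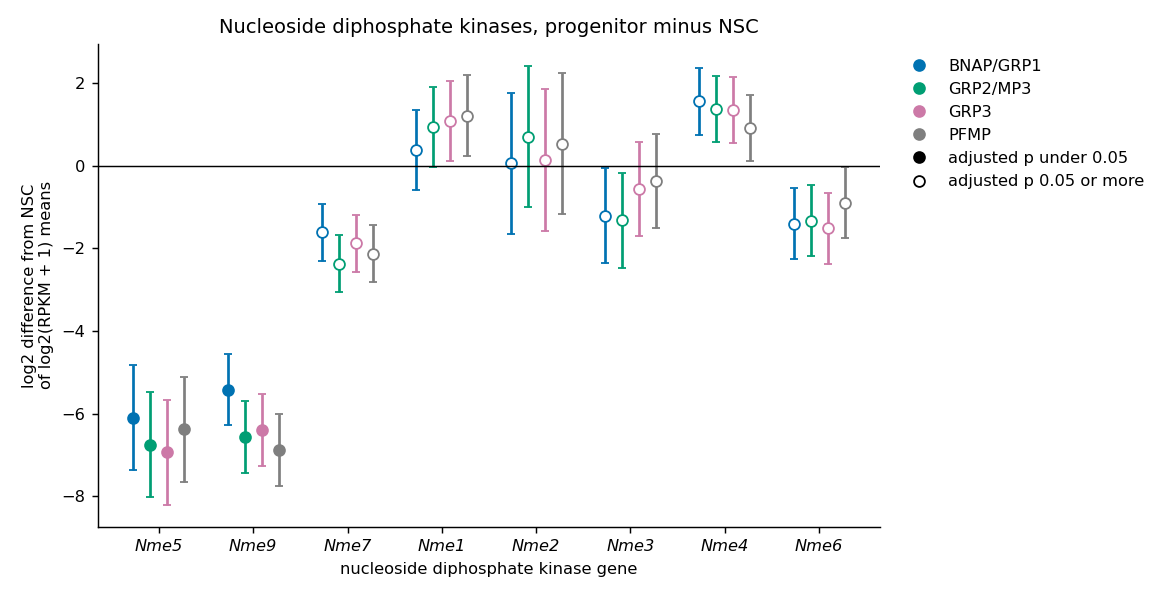
Difference of each progenitor from NSC in mean log2(RPKM + 1), with its standard error, for the 8 nucleoside diphosphate kinase genes tested, filled where the adjusted p was under 0.05. Nme5 and Nme9 lie between -6.94 and -5.42, below the other 6 genes.

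In the other lists 1 gene passed. Of 4 nucleoside monophosphate kinases outside the family, Cmpk2, the mitochondrial enzyme for UMP and CMP that interferon induces, fell in GRP2/MP3, at 1.19, 4.55, 4.93 and 1.37 RPKM against 83.2, 37.6, 8.94 and 15.6 in NSC of batches 1 to 4. The difference was -2.90 ± 0.67 (SE, limma, adjusted p 0.0312). It did not pass without GRP2/MP3 1 (0.141), GRP2/MP3 2 (0.0571), GRP2/MP3 4 (0.103), NSC 1 (0.184) or NSC 2 (0.157), nor with a pseudocount of 0.1 (0.0514), quantile normalization (0.0812), only the compared populations (0.235) or batch 4 left out (0.121), and without NSC 3 it passed in BNAP/GRP1 as well (0.0428). With all libraries in the fit, Cmpk2 was also lower in BNAP/GRP1 (-2.32), GRP3 (-1.59) and PFMP (-1.99), with an SE of 0.67. There it did not pass (limma, adjusted p 0.173, 0.665 and 0.29), so the fall was not particular to GRP2/MP3 in direction. Of 3 creatine kinases tested, 9 genes of AMP metabolism and 6 AMPK subunits, none passed in any progenitor. The smallest adjusted p was 0.342 for Ckmt2, the mitochondrial creatine kinase of striated muscle, 0.223 for Adss, adenylosuccinate synthase, and 0.866 for Prkab1, an AMPK beta subunit. With batch as a block 1 gene of AMP metabolism, Ampd3 (AMP deaminase of erythrocytes and other tissues), passed as higher in GRP3 (1.93, adjusted p 0.0491). It was 33.3 to 42.8 RPKM in batch 3 of all 5 populations and 0.541 to 16.4 in the other batches.

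The genes most like the ciliary members over the 20 libraries were found by Pearson's r of log2(RPKM + 1), as a description of libraries that share populations, batches and depth. Those nearest Ak7 were Crip3 (r = 0.981), Fam92b (0.979), Gm12144 (0.974), Wdr63 (0.974) and Dnali1 (0.974), of which Wdr63 and Dnali1 code for parts of the dynein arms. Over the 16 progenitor libraries alone their r was between 0.73 and 0.86. Those nearest Ak9 were Casc1 (0.984), Kif6 (0.982), Ccdc60 (0.980), Hydin (0.978) and Cfap57 (0.977), with r between 0.94 and 0.97 in the progenitors. Hydin and Cfap57 are also axoneme genes. Among the progenitor libraries, Ak7 (5.21 RPKM), Ak8 (6.68) and Ak9 (6.89) were each highest in BNAP/GRP1 4, the library of lowest inferred relative depth. The progenitor correlations may rest on that library, and they were not computed without it.

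Ak8 had other neighbours. They were Krt8 (0.973), Ttc12 (0.971), RP23-477L20.1 (0.965), Sorl1 (0.952) and Spint2 (0.945), with r between 0.84 and 0.96 over the 16 progenitor libraries. Krt8 was 2.8 to 47 RPKM in NSC, at most 0.0747 in the progenitors of batches 1 and 2, 1.55 to 2.96 in those of batch 3 and 0.036 to 6.29 in those of batch 4. Crip3 was listed at 0 in all 4 batch 3 progenitors and was 0 to 10.9 in those of batch 4. Among the members themselves, r over the 20 libraries was 0.82 for Ak7 with Ak8, 0.85 for Ak7 with Ak9 and 0.83 for Ak8 with Ak9, and over the 16 progenitor libraries 0.31, 0.66 and 0.35.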

How the data were processed

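RNA-seq was measured in 20 libraries of sorted mouse SVZ cells, 4 for each of 5 populations. According to the labels and the study's methods, the authors trimmed reads with cutadapt 3.4, checked them with FastQC 0.11.9, aligned them to GRCm38 with STAR 2.6.1 and quantified them with Salmon 1.9.0 in the nf-core/rnaseq workflow, and listed DESeq2 1.26.0. The values used are the authors' deposited RPKM, and the gene lengths and read totals behind them are not given in the sources used here. A further 26 columns of the table hold no values.

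RPKM were taken as log2(RPKM + 1). The 27614 genes that reached 1 RPKM in 4 or more libraries were fitted with limma 3.58.1 in R 4.3.3 (lmFit, eBayes with a trended prior, 1 mean per population, no batch term). Adjusted p-values are Benjamini-Hochberg values over these genes, and 0.05 was the threshold. The step was tested on simulated data. The study counts 4 independent experiments, after leaving out others of low quality. It does not state whether each was a separate litter, so p-values measure the spread between libraries. The members and lists were chosen with earlier results of these data known. Named genes are the 7 members and Ak6, the genes past the threshold in each related list (at most 4) or its smallest adjusted p, and the 5 genes most correlated with each of Ak7, Ak8 and Ak9. The batch numbers in the labels pair the libraries: with population means taken out, the median correlation was 0.337, 0.262, 0.769 and 0.581 within batches 1 to 4 and -0.254 between batches. The study names no batch term, so the block entered as an alternative. The standard errors and intervals printed are those of the fit without it. Other settings tried were quantile normalization, median-of-ratios scaling, a pseudocount of 0.1, no filter or a mean RPKM of 5 as the filter, only the compared populations in the fit, an untrended prior, and single libraries, batch 3 or batch 4 left out. The step of low values (tolerance 0.1, at least 10 values) gave reads for Ak5, Ak7 and Ak8 only. Positions are from GENCODE vM21, and Python 3.11.15 with matplotlib 3.10.9 drew the figures. A planned item is not reported here, and the share of Ak7 and Ak8 was taken over the 7 members, a choice made with the values seen.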

Additional observations from a re-analysis of the deposited data

Results flagged for a closer look

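In 6 of 35 groups of 4 libraries (7 genes in 5 populations), 1 library stood far from the other 3. The measure was the ratio of its gap to the range on the log2(RPKM + 1) scale, past Dixon's critical value at 95%. Chance gives that in about 1 of 20 groups of independent, normal values. These groups share batches and several values lie near 0, so that rate need not hold here. From batch 4 these were Ak5 in BNAP/GRP1 4 (8.15 RPKM against 0 to 0.236 in the other 3 batches), Ak5 in GRP2/MP3 4 (2.78 against 0 to 0.158) and Ak7 in BNAP/GRP1 4 (5.21 against 0.149 to 0.209). From batch 3 they were Ak8 in PFMP 3 (3.5 RPKM against 0.119 to 0.249), Ak4 in PFMP 3 (0.468 against 3.93 to 4.4) and Ak4 in GRP3 3 (0.559 against 3.38 to 4.11).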

How the results depend on the processing

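The number of members below NSC stayed between 2 and 4 in every progenitor under the settings run. Between progenitors, none of Ak1, Ak3, Ak4, Ak5 and Ak8 passed under any setting that tested it. In the main setting 0% of all genes tested passed there, so nothing particular to these members is read from that. Ak7 and Ak9 entered the fit through NSC and are left out of this statement. With a pseudocount of 0.1 the differences from NSC were larger in size for Ak7 (-6.83 to -7.34), Ak9 (-2.73 to -4.61) and Ak8 (-6.48, -6.47 and -6.66 in GRP2/MP3, GRP3 and PFMP), by construction of the scale. The differences of Ak1, Ak7, Ak8 and Ak9 kept their sign in every alternative, and those of Ak3, Ak4 and Ak5 changed sign in some. With Ak6 added to the sum, a setting added after seeing the data, the share of Ak7 and Ak8 was 41.3% in NSC and 4.9, 1.93, 1.87 and 1.81% in BNAP/GRP1, GRP2/MP3, GRP3 and PFMP. Over the 7 members alone, with single libraries left out, it stayed within the replicate spread in each population. The count of 1 called nucleoside monophosphate kinase outside the family (Cmpk2) became 0 with a pseudocount of 0.1, quantile normalization, only the compared populations or batch 4 left out, and ran from 0 to 1 with single libraries left out. With the replicate block, the count of called genes of AMP metabolism went from 0 to 1, and Nme7 passed in 3 progenitors. The block changed no other call on the lists. Over all genes it raised the genes called lower from 210, 308, 287 and 315 to 558, 803, 643 and 720 in BNAP/GRP1, GRP2/MP3, GRP3 and PFMP, and quantile normalization to 475, 441, 468 and 387. The cause of these moves was not tested. Absolute depth is unknown, so values near 0 carry no counting interval.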
